A study of Mus musculus with 32 samples.

Results

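The microglia genes described here are Ctss, Cx3cr1, P2ry12, Tmem119, Csf1r, C1qa, C1qb, Trem2 and Tyrobp. They were taken by gene symbol from a table of raw counts, in which each of the 9 had 1 row among 55401 genes, and all 9 were among the 16042 genes that passed the filter on low counts. RNA was sequenced from the cerebral cortex of 32 mice at 6 weeks of age, each library with its own animal number. The euploid group, +/+, had 12 animals, 6 labelled female and 6 male. The group Ts65Dn;Df(17)2 had 10 animals, 5 of each labelled sex. As background, Ts65Dn adds a freestanding chromosome that carries the distal part of mouse chromosome 16 and the centromeric end of chromosome 17, and the deficiency Df(17)2 returns the chromosome 17 part to the normal dose. The group Dp(16)1/Df(16)8 also had 10 animals, 5 of each labelled sex, and carries the chromosome 16 region as a duplication inside the chromosome, with the part not shared with Ts65Dn returned to the normal dose by the deficiency Df(16)8. The series compares these groups to separate effects of the dose of those genes from effects of an additional chromosome. Both alterations are inherited and not limited to a cell type, so microglia were not altered apart from other cells. The strain background and litters are not given in the labels.

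Microglia are the resident macrophages of the brain. They depend on signalling through the receptor CSF1R, survey the tissue with motile processes guided by nucleotide and chemokine receptors, and take up debris and synaptic material, some of it tagged by complement. In activated microglia the receptor TREM2, which signals through the adaptor TYROBP, accompanies a shift from homeostatic genes such as P2ry12 and Tmem119 towards lysosomal and lipid-handling genes. In whole cortex these transcripts measure the cells as a small share of all RNA, and fewer microglia cannot be told apart from less RNA per microglial cell.

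None of the 9 genes lies inside the chromosome 16 or chromosome 17 segments whose dose the alleles were made to change, so all are present at the normal dose. In GRCm38, Ctss is at chr3:95526786-95556403 and P2ry12 at chr3:59216272-59262871. Trem2 is on chromosome 17 at chr17:48346401-48354147, far from the segment of that chromosome, which ends at 8986648 with Pde10a. C1qa (chr4:136895917-136898803) and C1qb (chr4:136880129-136886187) lie close together on chromosome 4. Cx3cr1 is at chr9:119901616-120069879, Tmem119 at chr5:113793729-113800516 and Tyrobp at chr7:30413760-30417585. The counts are of whole genes, and the strand setting of the counting is not given in the sources used here. Cx3cr1 shares 78 exon bases with Gm33858 and P2ry12 shares 9 with Med12l, both on the other strand, where reads of the genes may be mixed.

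RefSeq promoter windows (GRCm38.p6) were at hand for 5 of the 9 genes. The stretches from 180 bases before to 6 bases after the start of Ctss, C1qb and Trem2 are shown. They hold GAGGAA on either strand, letters of a motif of PU.1, the macrophage transcription factor encoded by Spi1. Each reads 5′ to 3′ on the strand of the gene, and capitals mark matches on either strand to GAGGAAGT or its first 6 letters GAGGAA, whose reverse complements read ACTTCCTC and TTCCTC. The stretches are chr3:95526606-95526791 on the plus strand for Ctss, chr4:136886195-136886380 on the minus strand for C1qb and chr17:48346221-48346406 on the plus strand for Trem2.
Ctss: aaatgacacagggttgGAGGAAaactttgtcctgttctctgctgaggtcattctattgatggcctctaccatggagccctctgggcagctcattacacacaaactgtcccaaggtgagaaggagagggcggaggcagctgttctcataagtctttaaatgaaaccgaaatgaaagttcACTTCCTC
C1qb: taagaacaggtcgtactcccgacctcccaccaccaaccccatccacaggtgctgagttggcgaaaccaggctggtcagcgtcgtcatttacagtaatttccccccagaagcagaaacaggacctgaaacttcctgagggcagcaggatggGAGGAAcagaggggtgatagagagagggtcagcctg
Trem2: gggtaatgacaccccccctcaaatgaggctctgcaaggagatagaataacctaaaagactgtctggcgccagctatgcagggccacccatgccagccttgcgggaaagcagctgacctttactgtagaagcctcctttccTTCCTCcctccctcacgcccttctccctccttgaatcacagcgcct

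Ctss held the longer match over its start site, from base -2 to base 6, on the other strand, and the shorter letters also at bases -164 to -159. C1qb held GAGGAA at bases -30 to -25 and Trem2 its reverse complement at bases -40 to -35. Among all 32851 windows of 300 bases, 3.20% held GAGGAAGT and 28.3% held GAGGAA on either strand, with every match of the first also a match of the second. The windows of P2ry12 and Cx3cr1 held neither, but both held the shorter letters GGAA. The combined PU.1 and IRF8 letters, GGAA and then GAAA after 2 bases of any kind, in 2.72% of all windows, were in none of the 5, and TATAAA, in 13.6%, was in that of Ctss alone, at bases -233 to -228 on the other strand. These are matches of letters, and no binding was measured.

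Library totals ran from 5795479 to 11189548 counts, and mitochondrial genes took 2.32% to 3.61% of them. The sex-linked transcripts matched the label in 31 of 32 libraries, and the exception, Dp(16)1/Df(16)8 replicate 2, was kept with its label. The labelled tissue was checked against its markers: excitatory cortical neuron genes such as Slc17a7, the vesicular glutamate transporter, were abundant in every group (950 CPM in +/+, 685 in Ts65Dn;Df(17)2 and 754 in Dp(16)1/Df(16)8). Libraries also held transcripts of striatal medium spiny neurons in unequal amounts. A striatal score, the mean log2 CPM of 17 such genes, ran from 3.21 to 7.27 in +/+, from 5.17 to 7.12 in Ts65Dn;Df(17)2 and from 3.61 to 7.24 in Dp(16)1/Df(16)8. Its means were 5.35 ± 1.32 (SD, n = 12), 6.47 ± 0.602 (n = 10) and 5.96 ± 1.29 (n = 10). CPM here are counts scaled to libraries of 1000000 with TMM factors, and log2 CPM adds a prior count of 2.

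Within +/+ cortex the 9 genes differed widely in level. Levels of different genes were compared as CPM per kilobase of annotated exon, a scale that depends on which exons a gene's transcripts use. Ctss was the highest on that scale at 23.4 ± 4.09 (SD, n = 12), followed by the complement chains C1qa at 18.3 ± 3.26 and C1qb at 16.6 ± 2.77. Csf1r stood at 12.9 ± 1.68, P2ry12 at 11.2 ± 1.47 and Cx3cr1 at 8.94 ± 1.37. Tyrobp at 6.96 ± 1.37 and Tmem119 at 6.59 ± 1.36 CPM per kilobase followed, and Trem2 was the lowest at 0.408 ± 0.181. The ranges over animals of each neighbouring pair in this order overlapped, except for Tmem119 and Trem2. C1qa exceeded C1qb in 7 of 12 animals and Tyrobp exceeded Tmem119 in 8 of 12, so the order inside those pairs was not separated by the spread between animals. Trem2 rested on only 7 to 28 counts per library and Tyrobp on 23 to 67, whereas Csf1r had 366 to 1030.

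**Figure D1:**
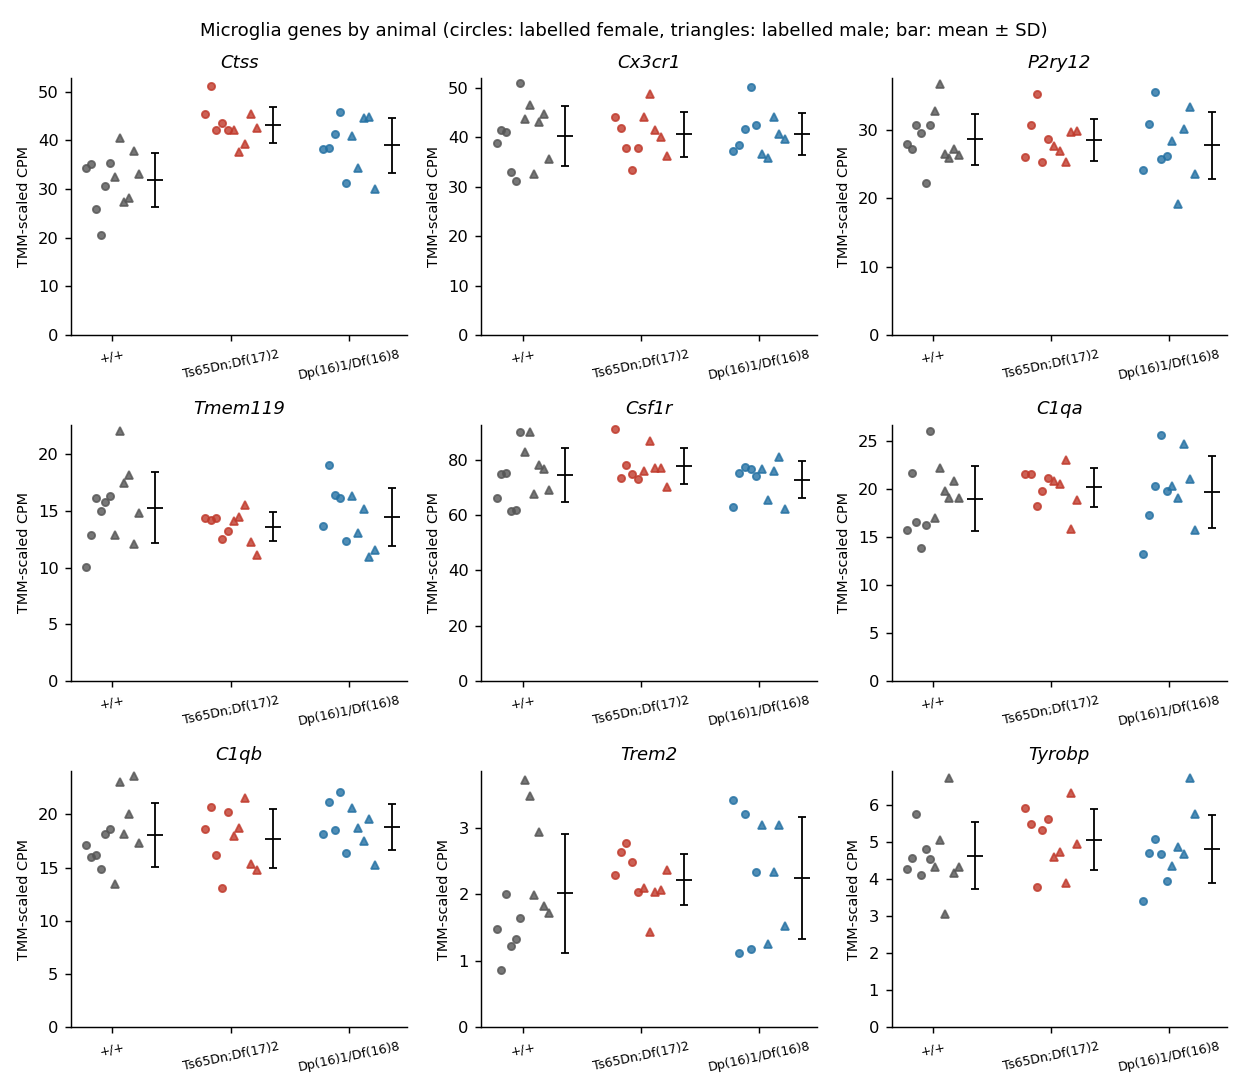
Level of each of the 9 microglia genes in every animal, as TMM-scaled CPM on a linear axis from 0, by genotype; circles are animals labelled female, triangles animals labelled male, and the bar beside each group is its mean ± SD. In Ctss all 10 Ts65Dn;Df(17)2 animals lie above the +/+ mean of 31.8 CPM, while the groups overlap over most of their range in the other 8 genes.

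Among the 9 genes, Ctss, which encodes the lysosomal cysteine protease cathepsin S, was higher in Ts65Dn;Df(17)2 than in +/+ cortex, and the other 8 did not pass the test. In +/+ the level of Ctss ran from 20.6 to 40.4 CPM with a median of 32.8 (mean 31.8 ± 5.56, SD, n = 12). In Ts65Dn;Df(17)2 it ran from 37.6 to 51.2 CPM with a median of 42.4 (mean 43.1 ± 3.73, n = 10). All 10 of these animals were above the +/+ mean, 8 were above the highest +/+ animal, and 10 of 12 +/+ animals were below the lowest Ts65Dn;Df(17)2 animal, so the groups overlapped only at their edges. The fold change was 1.36 (95% interval 1.20 to 1.54), or 0.44 on the log2 scale with a standard error of 0.0879. The adjusted p was 0.0037 by the quasi-likelihood test of edgeR, with Benjamini-Hochberg adjustment over the 16042 tested genes. With runs of neighbouring animal numbers as terms, described further on, the call was lost (0.34, adjusted p 0.229). That is 1 member called of 9 without those terms, beside 3.97% of all tested genes called in this comparison, 1.75% higher and 2.22% lower.

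In Dp(16)1/Df(16)8, Ctss lay between the other groups, from 29.99 to 45.9 CPM with a median of 39.7 (mean 39.0 ± 5.64, SD, n = 10). Of these animals, 8 were above the +/+ mean and 5 above the highest +/+ animal, while 4 of 12 +/+ animals were below the lowest of them, so the ranges overlapped over much of their length. The log2 fold change against +/+ was 0.29 (95% interval 0.11 to 0.47), with an unadjusted p of 0.0022 and an adjusted p of 0.142 by edgeR. It did not pass, and 0 of the 9 members were called here, beside 0.573% of all tested genes (0.418% higher and 0.156% lower). DESeq2 and limma voom also called 0, and 1 member, Ctss, had an unadjusted p under 0.05, as had 12.8% of all genes. With the runs of animal numbers as terms, Ctss passed here (0.33, adjusted p 0.0416). Directly compared, Ctss differed between Ts65Dn;Df(17)2 and Dp(16)1/Df(16)8 by 0.15 on the log2 scale, with an interval from -0.04 to 0.33 that includes 0. In that comparison 0 of 9 members and 0.0499% of all genes were called, with an unadjusted p under 0.05 for 0 members and 4.1% of all genes. DESeq2 and limma voom also called 0 members, and edgeR gave an adjusted p of 0.9998 for each of the 9. A difference between the aneuploid groups of up to 1.26-fold in Ctss lies within the interval. Both comparisons with +/+ use the same 12 control animals.

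Ctss was also higher relative to the other microglia genes of the same library. The ratio of Ctss to the summed CPM of the other 8 genes, set to a mean of 1 in +/+, ran from 0.756 to 1.20 there (SD 0.148, n = 12). It ran from 1.07 to 1.55 in Ts65Dn;Df(17)2 (1.34 ± 0.143, SD, n = 10) and from 1.01 to 1.38 in Dp(16)1/Df(16)8 (1.23 ± 0.115, n = 10). All 10 animals of each aneuploid group were above the +/+ mean, with 8 of Ts65Dn;Df(17)2 and 7 of Dp(16)1/Df(16)8 above the highest +/+ animal. With the geometric mean of the 8 genes below the line, chosen after the data were seen, the means were 1.31 and 1.20, and 8 and 4 animals exceeded the highest +/+ animal. The ratio is a description, since Ctss entered it after its own difference was known.

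**Figure D2:**
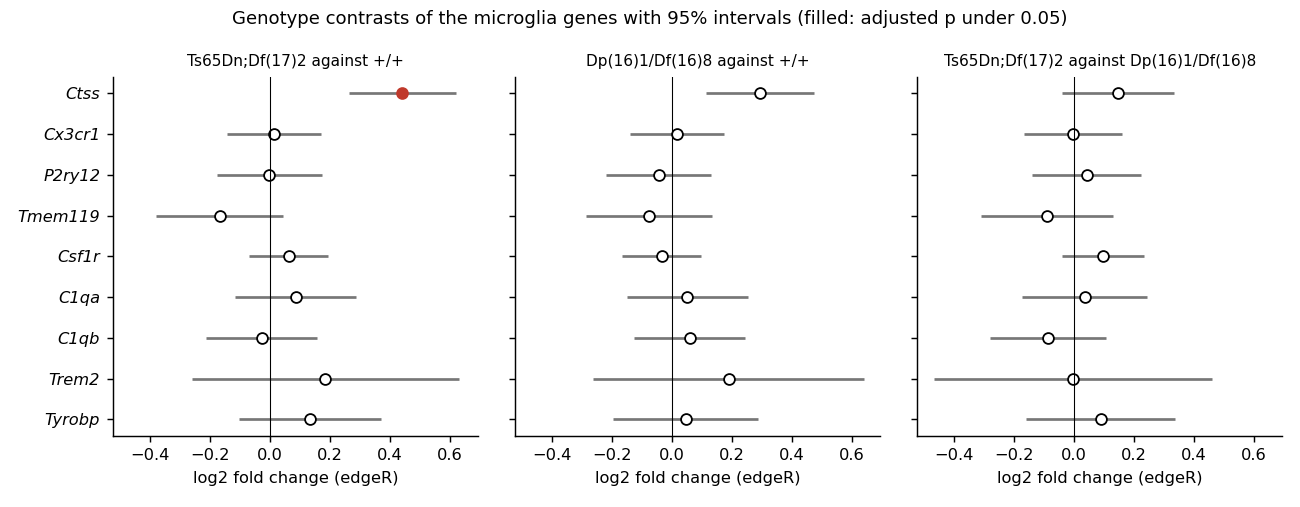
Log2 fold change of each microglia gene in the 3 genotype comparisons, with 95% intervals from edgeR's quasi-likelihood fit to all 32 libraries; the filled point passed the adjusted threshold of 0.05. Only Ctss in Ts65Dn;Df(17)2 against +/+ is filled, at 0.44, and Trem2 has the widest intervals.

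The surface receptors of resting microglia differed little between genotypes. Csf1r, the receptor for CSF1 and IL-34 on which microglia depend, ran from 61.5 to 90.1 CPM in +/+ (median 75.0, n = 12), from 70.0 to 91.1 in Ts65Dn;Df(17)2 (median 76.3, n = 10) and from 62.0 to 80.9 in Dp(16)1/Df(16)8 (median 75.6, n = 10). The 3 ranges overlapped, with 5 of 12 +/+ animals below the lowest Ts65Dn;Df(17)2 animal and 1 Ts65Dn;Df(17)2 animal above the highest +/+ animal. The gene lies at chr18:61100598-61132149 in GRCm38 and shares 873 exon bases, 15.1% of its exon length, with Hmgxb3 on the other strand, so reads of the 2 genes there may be mixed. Its log2 fold change against +/+ was 0.06 (95% interval -0.07 to 0.19) in Ts65Dn;Df(17)2 and -0.03 (-0.17 to 0.10) in Dp(16)1/Df(16)8.

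Cx3cr1, the receptor for the neuronal chemokine fractalkine, ran from 31.2 to 50.9 CPM in +/+ (median 41.4), from 33.5 to 48.8 in Ts65Dn;Df(17)2 (median 40.8) and from 35.9 to 50.1 in Dp(16)1/Df(16)8 (median 40.2). Both aneuploid ranges lay inside the +/+ range. Its log2 fold changes were 0.01 (-0.15 to 0.17) and 0.02 (-0.14 to 0.17), so a change of more than about 0.17 in either direction lies outside the 95% interval of each comparison with +/+. P2ry12, the receptor for ADP that guides microglial processes, ran from 22.3 to 36.7 CPM in +/+ (median 27.5), from 25.3 to 35.2 in Ts65Dn;Df(17)2 (median 28.1) and from 19.1 to 35.5 in Dp(16)1/Df(16)8 (median 27.3). Here 1 Dp(16)1/Df(16)8 animal was below the lowest +/+ animal and none was above the highest. The log2 fold changes of P2ry12 were -0.0029 (-0.18 to 0.17) and -0.04 (-0.22 to 0.13).

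Tmem119, a membrane protein gene used as a marker of homeostatic microglia, was the member with the lowest fold change in both comparisons with +/+, and it did not pass in either. It ran from 10.03 to 21.96 CPM in +/+ (median 15.3), from 11.1 to 15.5 in Ts65Dn;Df(17)2 (median 14.1) and from 10.9 to 19.1 in Dp(16)1/Df(16)8 (median 14.4). Of the Ts65Dn;Df(17)2 animals, 1 of 10 was above the +/+ mean of 15.3 CPM, but all 10 were inside the +/+ range. The log2 fold change was -0.17 (-0.38 to 0.04) with an adjusted p of 0.352 by edgeR, and -0.08 (-0.29 to 0.13) in Dp(16)1/Df(16)8. With the striatal score added to the model the value in Ts65Dn;Df(17)2 was -0.24 (-0.46 to -0.02), with an adjusted p of 0.337.

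The complement chains did not pass in any comparison. C1qa and C1qb encode chains of C1q, the recognition molecule that starts the classical complement cascade. C1qa ran from 13.9 to 26.1 CPM in +/+ (median 19.1), from 15.9 to 23.1 in Ts65Dn;Df(17)2 (median 20.7) and from 13.3 to 25.6 in Dp(16)1/Df(16)8 (median 20.1). C1qb ran from 13.5 to 23.6 CPM in +/+ (median 17.7), from 13.1 to 21.5 in Ts65Dn;Df(17)2 (median 18.3) and from 15.3 to 22.1 in Dp(16)1/Df(16)8 (median 18.6). The ranges overlapped in both genes, and 1 Dp(16)1/Df(16)8 animal in C1qa and 1 Ts65Dn;Df(17)2 animal in C1qb lay below the lowest +/+ animal. Against +/+, C1qa was at 0.08 (-0.12 to 0.29) and 0.05 (-0.15 to 0.25) on the log2 scale, and C1qb at -0.03 (-0.21 to 0.16) and 0.06 (-0.13 to 0.24). C1qc, the gene of the remaining chain, was at 0.09 and 0.05 and did not pass.

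Trem2 and Tyrobp, the lipid-sensing receptor and its signalling adaptor, were measured with less precision. Trem2 ran from 0.864 to 3.72 CPM in +/+ (median 1.78), from 1.44 to 2.78 in Ts65Dn;Df(17)2 (median 2.201) and from 1.12 to 3.42 in Dp(16)1/Df(16)8 (median 2.34). Its log2 fold changes of 0.18 (-0.26 to 0.63) and 0.19 (-0.26 to 0.64) left a change of up to 1.55-fold and 1.56-fold inside the intervals. Tyrobp ran from 3.06 to 6.72 CPM in +/+ (median 4.44), from 3.79 to 6.33 in Ts65Dn;Df(17)2 (median 5.16) and from 3.42 to 6.74 in Dp(16)1/Df(16)8 (median 4.70). Its log2 fold changes were 0.13 (-0.10 to 0.37) and 0.04 (-0.20 to 0.29). The groups overlapped in both genes, and neither difference was detectable at this depth.

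Over the 9 genes the median log2 fold change was 0.06 in Ts65Dn;Df(17)2 and 0.04 in Dp(16)1/Df(16)8, beside medians over all tested genes of 0.0047 and 0.0014. In each comparison 6 of the 9 values were above 0, as were 51.4% and 50.5% of all genes. The summed CPM of the 9 ran from 194 to 290 in +/+ (234 ± 27.98, SD, n = 12), from 230 to 270 in Ts65Dn;Df(17)2 (249 ± 12.7, n = 10) and from 205 to 268 in Dp(16)1/Df(16)8 (240 ± 23.4, n = 10).

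No difference between genotypes was found to depend on sex. The test of the interaction between genotype and sex in edgeR called 0 of the 9 members and 0 of 16042 genes after adjustment, and 1 member, Trem2, had an unadjusted p under 0.05 (0.0199, adjusted 0.996), as had 4.22% of all genes. DESeq2 and limma voom also called 0 of the 9, beside 0.00624% and 0% of all genes. Trem2 was at 1.42 ± 0.390 CPM (SD, n = 6) in +/+ animals labelled female and at 2.61 ± 0.878 (n = 6) in those labelled male. In Ts65Dn;Df(17)2 it was at 2.45 ± 0.292 (n = 5) in females and 2.00 ± 0.340 (n = 5) in males, so the order of the sexes was opposite in these 2 groups, and in Dp(16)1/Df(16)8 the values were 2.25 ± 1.09 and 2.24 ± 0.838 (n = 5 each). For Ctss, the female animals stood at 30.3 ± 5.98, 44.9 ± 3.79 and 39.0 ± 5.31 CPM in +/+, Ts65Dn;Df(17)2 and Dp(16)1/Df(16)8, and the males at 33.2 ± 5.22, 41.3 ± 3.03 and 38.9 ± 6.58.

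The striatal score moved with Ctss and with most of the other microglia genes from animal to animal. After the means of genotype and sex were removed, 6 of 9 members correlated with the score past an adjusted p of 0.05 (permutation within genotype and sex, 100000 permutations, two-sided, Benjamini-Hochberg over the 9). Ctss had the highest Pearson r, 0.78 over 32 animals (permutation p = 2e-05, adjusted 0.00018; Spearman's rho 0.77, permutation p = 1e-05, the smallest these permutations can give, adjusted 9e-05), and r was 0.75 without the 2 animals farthest from the median. Within +/+ it was 0.82 (n = 12) and within Dp(16)1/Df(16)8 0.86 (n = 10), whereas within Ts65Dn;Df(17)2, whose scores spanned the narrowest range, it was 0.23 (n = 10). C1qa (r = 0.69), Csf1r (0.67), P2ry12 (0.55), C1qb (0.54) and Cx3cr1 (0.52) also passed by both r and rho. Within Ts65Dn;Df(17)2 their r was -0.06, -0.25, 0.45, 0.52 and 0.07, so the relation was not seen in that group for C1qa, Csf1r and Cx3cr1. Tmem119 (0.26), Trem2 (0.07) and Tyrobp (0.10) did not pass.

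When the striatal score entered the edgeR model, the log2 fold change of Ctss in Ts65Dn;Df(17)2 was 0.29 (adjusted p 0.013), smaller than 0.44 and still past the threshold, beside 0.985% of all genes called. For Dp(16)1/Df(16)8 it was 0.21 (adjusted p 0.138), beside 0.598%. All 17 striatal genes had a fold change above 1 in Ts65Dn;Df(17)2 (median log2 0.71) and in Dp(16)1/Df(16)8 (0.52), and 0 of them passed by edgeR, DESeq2 or limma voom, with 1 and 0 at an unadjusted p under 0.05. Of 13 excitatory cortical neuron genes, 6 fell and 0 rose in Ts65Dn;Df(17)2 by edgeR, with Rorb (-0.55) and Lamp5 (-0.76) among those that fell. Of all tested genes 2.22% fell and 1.75% rose there. All 13 had an unadjusted p under 0.05 there, a share not reported here for all genes. Of the 13, 2 had fold changes above 1, up to 0.65 on the log2 scale. In Dp(16)1/Df(16)8 0 of the 13 passed, beside 0.573% of all genes. An unadjusted p under 0.05 was found there for 5 of them and for 12.8% of all genes. Whether microglia of striatum and cortex differ in these transcripts was not tested.

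**Figure D3:**
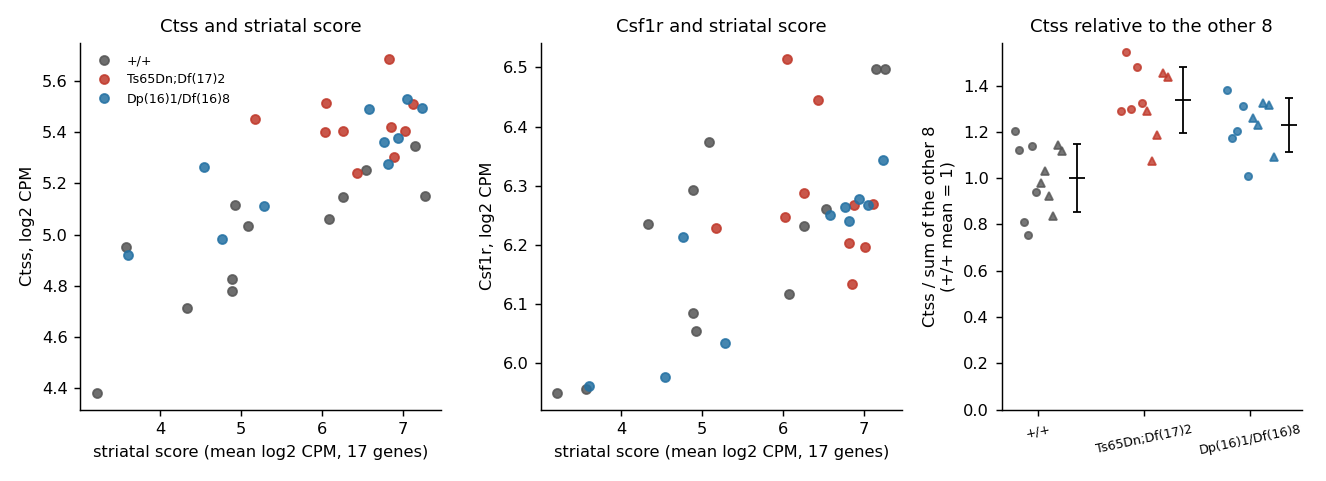
Log2 CPM of Ctss and of Csf1r against the striatal score of each of the 32 libraries (mean log2 CPM of 17 striatal genes), coloured by genotype, and the ratio of Ctss to the sum of the other 8 microglia genes with the +/+ mean set to 1 (bars: mean ± SD; circles labelled female, triangles labelled male). Ctss rises with the score in +/+ and Dp(16)1/Df(16)8, and Ts65Dn;Df(17)2 has a mean ratio of 1.34.

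The animal numbers in the labels were sorted and cut here into 5 runs, a new run starting at each step of more than 20. The labels do not name such runs, and the genotypes are unevenly spread over them. The largest run held 8 of the 10 Ts65Dn;Df(17)2 animals with 6 +/+ and 3 Dp(16)1/Df(16)8 animals, and the other 2 Ts65Dn;Df(17)2 animals had a run to themselves. Within the shared run Ctss ran from 25.996 to 37.9 CPM in +/+ (33.5 ± 4.08, SD, n = 6), from 37.6 to 51.2 in Ts65Dn;Df(17)2 (43.2 ± 4.21, n = 8) and from 41.3 to 45.9 in Dp(16)1/Df(16)8 (44.0 ± 2.40, n = 3). There the ranges of the aneuploid groups overlapped, and every aneuploid animal was above all but the highest +/+ animal. In another run the 3 +/+ animals had 20.6 to 30.7 CPM and the 3 Dp(16)1/Df(16)8 animals 38.2 to 40.9. In a further run the 2 +/+ animals, at 33.1 and 40.4 CPM, lay inside the range of the 3 Dp(16)1/Df(16)8 animals, 29.99 to 44.8. With the runs as terms in the edgeR model, Ctss was at 0.34 in Ts65Dn;Df(17)2 with an adjusted p of 0.229, no longer past the threshold, beside 0.536% of all genes called. The value for Dp(16)1/Df(16)8 was 0.33 (0.16 to 0.51) with an adjusted p of 0.0416, now past the threshold, beside 1.47% of all genes. The difference between the aneuploid groups was then 0.0021 (-0.23 to 0.23), and 0 members and 0.0436% of all genes were called. Litter, age in days and handling within a run are not given, so what the runs stand for was not tested.

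The microglia genes varied together only in part. Of 36 pairs, 33 had a positive Pearson r across the 32 animals after the means of genotype and sex were removed, with a median r of 0.28, and 10 passed an adjusted permutation p of 0.05 (7 by Spearman's rho). Cx3cr1 and Csf1r were the closest pair, with r = 0.77 (rho 0.76) and 0.69 without the 2 animals farthest from the median. Within +/+, Ts65Dn;Df(17)2 and Dp(16)1/Df(16)8 their r was 0.93, 0.65 and 0.50. Csf1r was also linked to C1qa (0.64), P2ry12 (0.54) and Ctss (0.51), and C1qa to Cx3cr1 (0.58), Ctss (0.54) and C1qb (0.49). The remaining pairs past the threshold were P2ry12 with Trem2 (0.51), Tmem119 with C1qb (0.49) and Ctss with C1qb (0.42). By rho, Ctss with Csf1r, Ctss with C1qb and P2ry12 with Trem2 did not pass (adjusted permutation p 0.0646, 0.121 and 0.0711). Without the 2 animals farthest from the median their r was 0.34, 0.30 and 0.37. The r of Ctss with Csf1r, C1qa and C1qb was 0.58, 0.66 and 0.50 within +/+. Within Dp(16)1/Df(16)8 it was 0.69, 0.59 and 0.69, and within Ts65Dn;Df(17)2 -0.12, -0.02 and 0.01. Tyrobp passed with none of the other 8, and its r with Trem2, the receptor it serves, was 0.04. The members correlated with the striatal score include 6 of the 9, and how much of the pairs' r moves with the score was not tested.

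**Figure D4:**
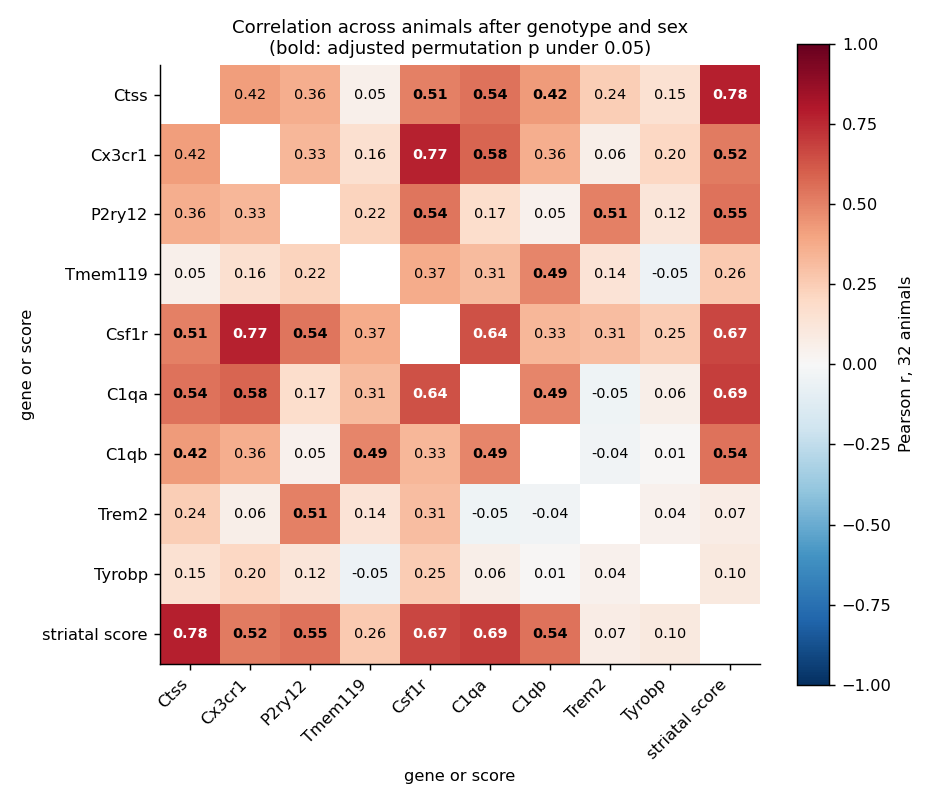
Pearson r across 32 animals between each pair of microglia genes, and between each gene and the striatal score, after removal of genotype and sex means; bold values passed the adjusted permutation threshold of 0.05. The strongest pair is Cx3cr1 with Csf1r (0.77), and Ctss has its highest r with the striatal score (0.78).

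The genes closest to the microglia set were sought among 13262 tested genes, leaving out pseudogenes and symbols of the Gm and Rik series. With the mean of the 9 standardised members, Mpped2 had the highest Pearson r across the 32 animals (0.88), and Arg2 (0.83), Ryr3 and AI197445 were also among the closest. None of these is a listed microglia gene. With Ctss alone the 5 closest were BB031773 (0.85), Slc35d3 (0.82), Stk26 (0.81), Six3os1 and Lrp8os2. Among 16041 genes ranked by their r with Ctss, C1qa was 806th, Csf1r 1085th and Tmem119 7405th. The 5 closest were the highest of 13262 genes, set beside only 8 other members, so their higher r does not show whether Ctss varies with the set. How much of these r moves with the striatal score was not tested.

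Other genes that mark microglia were examined as a list of 26, of which 25 passed the count filter. In Ts65Dn;Df(17)2 0 rose and 1 fell, and in Dp(16)1/Df(16)8 0 changed, with 2 at an unadjusted p under 0.05 and 0 called by DESeq2 or limma voom. Of all tested genes, 3.97% were called in Ts65Dn;Df(17)2 (2.22% lower), so 1 call of 25 is near that share. In Dp(16)1/Df(16)8 0.573% of all genes were called, and 12.8% had an unadjusted p under 0.05. The list medians were 0.02 and 0.03 on the log2 scale. The gene that fell was Mertk, a receptor for the uptake of dying cells and synapses that astrocytes also express. It ran from 42.3 to 80.0 CPM in +/+ (median 55.5, n = 12) and from 34.6 to 50.3 in Ts65Dn;Df(17)2 (median 44.5, n = 10), with all 10 animals below the +/+ mean. The log2 fold change was -0.39 with an adjusted p of 0.016 by edgeR, and -0.31 (adjusted p 0.132) once the striatal score was added to the model. Among the astrocyte markers, Fgfr3 (-0.23) and Aldoc (-0.18) also fell in Ts65Dn;Df(17)2, while 5 of those 10 markers had fold changes above 1, up to 0.19 on the log2 scale in Aqp4, and 0 rose. Spi1 and Irf8, which encode the transcription factors PU.1 and IRF8, were at -0.09 and -0.04 in Ts65Dn;Df(17)2 and at -0.12 and -0.01 in Dp(16)1/Df(16)8.

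Of 12 genes of the signals that reach microglia 11 were tested, and 0 passed by edgeR in either genotype, with 3 at an unadjusted p under 0.05 in each. Of all tested genes 12.8% had such an unadjusted p in Dp(16)1/Df(16)8, and the share in Ts65Dn;Df(17)2 is not reported here. DESeq2 called 2 of them in Ts65Dn;Df(17)2 and 0 in Dp(16)1/Df(16)8, and limma voom called 0. The most abundant were Cx3cl1, which encodes fractalkine (-0.24, adjusted p 0.059 in Ts65Dn;Df(17)2), and the receptor gene Sirpa (-0.21, adjusted p 0.06). Around TREM2, 1 of 12 tested genes of 14 rose and 1 fell in Ts65Dn;Df(17)2, beside 1.75% and 2.22% of all tested genes. Adam17, a protease that sheds membrane proteins including TREM2, rose from 20.2 ± 2.15 CPM (SD, n = 12) to 24.3 ± 3.72 (n = 10), a log2 change of 0.26 with an adjusted p of 0.047. Clu, which encodes the lipid-binding chaperone clusterin, abundant in astrocytes, fell in both aneuploid genotypes, from 391.9 ± 22.4 CPM to 336 ± 21.5 in Ts65Dn;Df(17)2 and 346 ± 25.8 in Dp(16)1/Df(16)8. Of 10 animals, 9 and 7 were below the lowest +/+ animal, and the log2 changes were -0.22 (adjusted p 0.0012) and -0.18 (adjusted p 0.023) by edgeR. Clu is also on the complement list, where Serping1, the inhibitor of C1, was the other gene past the threshold in Ts65Dn;Df(17)2, at 6.00 ± 1.75 CPM against 4.02 ± 0.949 in +/+ (log2 0.57, adjusted p 0.037). Serping1 in Dp(16)1/Df(16)8 was at 0.05 and did not pass, and the difference between the aneuploid groups, 0.52, had an adjusted p of 0.918. In that list 12 of 14 tested genes of 19 did not pass in Ts65Dn;Df(17)2, and 13 of 14 in Dp(16)1/Df(16)8. Of all tested genes 3.97% and 0.573% passed. C3 and Cfb were below the count filter.

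Among the other cathepsins and their inhibitors, 1 of 13 tested genes of 14 changed in Ts65Dn;Df(17)2 and 0 in Dp(16)1/Df(16)8, beside 3.97% and 0.573% of all tested genes. Ctsa, which encodes the lysosomal protective protein, rose from 56.3 ± 4.20 CPM in +/+ to 64.5 ± 2.73 in Ts65Dn;Df(17)2, with 8 of 10 animals above the highest +/+ animal (log2 0.19, adjusted p 0.011 by edgeR). The abundant Ctsb (-0.07), Ctsd (-0.01) and Ctsl (-0.04) did not pass, and neither did Ctsc (0.26), Ctsh (0.22) and Ctso (0.16). In the list 7 of 13 values were above 0, with a median of 0.02. Of 21 genes that mark activated microglia only 10 passed the count filter, and 1 of them, Spp1, the gene of osteopontin, rose in both genotypes by edgeR. Spp1 ran from 3.25 to 7.84 CPM in +/+ (median 3.85), from 5.68 to 9.30 in Ts65Dn;Df(17)2 (median 7.69) and from 4.42 to 10.1 in Dp(16)1/Df(16)8 (median 7.31). Its log2 changes were 0.68 (adjusted p 0.0089) and 0.62 (adjusted p 0.043), and 0.84 and 0.70 once the striatal score was added. Which cells of the cortex the Spp1 reads came from was not tested. Of the 10 tested genes 8 had a fold change above 1 in each genotype, with medians of 0.14 and 0.09. Gpnmb, a gene of lipid-handling macrophages, had the highest value in Ts65Dn;Df(17)2, 0.90 with an adjusted p of 0.0518, and was at 0.38 in Dp(16)1/Df(16)8. DESeq2 and limma voom each called 2 genes of the list in Ts65Dn;Df(17)2 and 1 in Dp(16)1/Df(16)8. Apoe, the apolipoprotein gene that astrocytes also express, was at -0.08 and -0.05 and did not pass, and Cst7, Clec7a, Itgax, Il1b and Tnf were below the filter, with 7 to 79 counts summed over all 32 libraries.

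**Figure D5:**
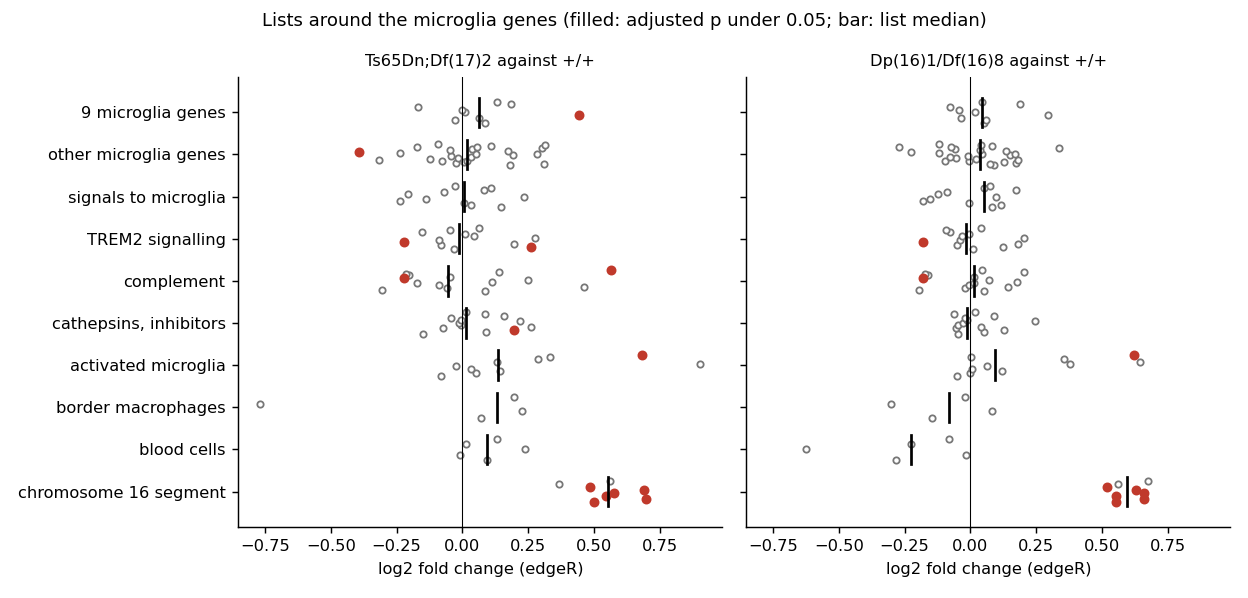
Log2 fold change against +/+ of every tested gene in the 9 microglia genes and 9 related lists, for Ts65Dn;Df(17)2 (left) and Dp(16)1/Df(16)8 (right); filled points passed the adjusted threshold of 0.05 and the bar is the median of the list. The medians lie at 0.14 and 0.09 for the activated microglia genes, at 0.02 and 0.03 for the other microglia genes and at 0.55 and 0.59 for 8 listed genes of the chromosome 16 segment.

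A list of 8 genes inside the chromosome 16 segment, which has an additional copy in both genotypes, stood apart from the 9 members. Their summed CPM was 1647 ± 95.1 (SD, n = 12) in +/+, beside 234 for the 9 members. Which cells of the cortex these reads came from was not tested. Of the 8 genes, 6 rose in each genotype by edgeR, beside 1.75% and 0.418% of all tested genes. The 6 were the interferon receptor genes Ifnar1, Ifnar2 and Ifngr2, the transcription factors Bach1 and Ets2, and App, the amyloid precursor gene. The list medians were 0.55 and 0.59. Ifnar1 was at 0.57 and 0.66, Ifnar2 at 0.69 and 0.63, and Bach1 at 0.70 and 0.66 on the log2 scale. Il10rb (0.37 and 0.56) and Runx1 (0.56 and 0.67) did not pass by edgeR, while of the 8 genes DESeq2 called 7 in Ts65Dn;Df(17)2 and 8 in Dp(16)1/Df(16)8, and limma voom called 7 in each.

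Markers of other cells that share transcripts with microglia were also measured. Of 8 genes of border macrophages 4 passed the filter and 0 were called by edgeR, DESeq2 or limma voom in either genotype. At an unadjusted p under 0.05 were 1 in Ts65Dn;Df(17)2 and 0 in Dp(16)1/Df(16)8. Their log2 fold changes ran from -0.77 to 0.23 and from -0.30 to 0.08. The summed CPM of these border macrophage genes ran from 9.59 to 19.7 in +/+, from 9.36 to 20.2 in Ts65Dn;Df(17)2 and from 10.9 to 17.3 in Dp(16)1/Df(16)8. Their defining gene Pf4 was at 0 counts in 4 libraries and Ms4a7 in 8. Of 14 blood cell genes 5 passed and 0 changed, and the T-cell genes Cd3e and Cd3g were at 0 in 26 and 29 of 32 libraries. Oligodendrocyte genes (0 of 9), vascular genes (0 of 10) and choroid plexus genes (0 of 3) had none past the threshold by edgeR in either genotype, while DESeq2 called 1 vascular gene in Dp(16)1/Df(16)8. At an unadjusted p under 0.05 were 2 and 4 vascular genes and 0 of the other 2 lists. In Ts65Dn;Df(17)2 1 gene each rose of 9 interneuron genes (Gad1, 0.43), 6 oligodendrocyte precursor genes (Lhfpl3, 0.53) and 8 meningeal genes (Col3a1, 0.87). Of all tested genes 1.75% rose there. The interneuron values there ran from -0.67 to 0.93 on the log2 scale, with 6 of 9 above 0. Also in Ts65Dn;Df(17)2, 2 of 10 astrocyte genes fell as given above, beside 2.22% of all tested genes. By edgeR, 8 interneuron, 3 precursor, 3 meningeal and 5 astrocyte genes had an unadjusted p under 0.05 in that genotype. The share of all genes at that unadjusted p in Ts65Dn;Df(17)2 is not reported here, so the counts of these lists cannot be set beside it. For Dp(16)1/Df(16)8 those counts were 3, 2, 0 and 5, beside 12.8% of all genes. There 0 genes of these lists passed by edgeR, and DESeq2 called 1 astrocyte gene. All 8 meningeal genes had fold changes above 1 in both genotypes, with medians of 0.33 and 0.12. In the direct comparison of Ts65Dn;Df(17)2 with Dp(16)1/Df(16)8, 0 genes of any list passed by edgeR, DESeq2 or limma voom. The part of these cells in the difference of Ctss was not tested.

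Calls were also taken without each library in turn. Ctss in Ts65Dn;Df(17)2 stayed past the threshold without any 1 of the 32 libraries, at 0.39 to 0.47 with adjusted p of 0.0013 to 0.011. Mertk, Ctsa, and Clu and Spp1 in Ts65Dn;Df(17)2 did so as well. Adam17 lost its call in 23 of 32 such refits, Serping1 in 10, Spp1 in Dp(16)1/Df(16)8 in 21 and Clu in Dp(16)1/Df(16)8 in 6. With the striatal score added, Adam17 (0.19, adjusted p 0.277), Serping1 (0.44, 0.212), Ctsa (0.15, 0.101) and Mertk lost theirs, and Clu and Spp1 passed in both genotypes. With the runs of animal numbers as terms, Adam17 (0.21, adjusted p 0.512), Serping1 (0.69, 0.133) and Ctsa (0.18, 0.251) lost theirs in Ts65Dn;Df(17)2, against log2 fold changes of 0.26, 0.57 and 0.19 without the terms, while Mertk passed in both (-0.29 and -0.25). With no filter on low counts Adam17 (adjusted p 0.077) and Serping1 (0.0567) did not pass in Ts65Dn;Df(17)2, nor did Clu (0.078) and Spp1 (0.075) in Dp(16)1/Df(16)8. Spp1 in Dp(16)1/Df(16)8 also missed the threshold with only the groups compared (adjusted p 0.135) and without animals numbered below 30000 (0.0538). Adam17 also missed it by limma voom (0.0535), without the sex term (0.0523), with only the groups compared (0.056) and without the library whose sex label did not match (0.0542).

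The count of members called was also taken under other scalings, tools, filters and sets of libraries. Against +/+ in Ts65Dn;Df(17)2, Ctss was the 1 member called beside 3.95% of all genes with the size factors of DESeq2 in edgeR, 6.67% by DESeq2 itself, 4.06% by limma voom and 1.02% with no filter on low counts. It was also the 1 member called beside 2.81% without the sex term, 5.8% with only the groups compared, 1.73% without animals numbered below 30000 and 3.26% without the library whose sex label did not match. Against +/+ in Dp(16)1/Df(16)8, 0 members were called in the same order of settings, beside 0.58%, 1%, 0.53%, 0.241%, 0.536%, 0.476%, 0.526% and 0.572% of all genes. Between the aneuploid groups 0 members were called, beside 0.0499%, 0.0499%, 0.0436%, 0.0247%, 0.0499%, 0.0512%, 0.0495% and 0.0435%.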

How the data were processed

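The authors deposited whole-number read counts per gene with no normalization. Per the labels' protocols, libraries were made from total RNA after removal of ribosomal RNA. Per the submitters' processing notes, the tools were STAR 2.7.9a, bcl2fastq 2.20 and, from Subread 1.6.4, featureCounts, and both GRCm38.p6 and GRCh38 are named as builds. What each build was used for, and the strand setting, are not given in the sources used here.

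Genotype and sex came from the labels, with replicate numbers in label order. Genes were kept by filterByExpr with genotype as group in edgeR 4.0.16 (R 4.3.3), which left 16042 genes with 99.7% of the counts. All 32 libraries entered 1 quasi-likelihood model of genotype and sex with TMM factors. Benjamini-Hochberg adjustment covered every tested gene, with a threshold of 0.05. The fit was also run on simulated counts that held neither a striatal share nor runs of animal numbers, and the outcome is not reported here. The other tools were limma 3.58.1 and DESeq2 1.42.0. Gene positions and exon lengths came from an annotation of GRCm38, matched by identifier. The bounds of the altered segments come from background knowledge of their end genes.

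Correlations used log2 CPM with a prior count of 2 and 100000 permutations within genotype and sex. The members and the 19 gene lists were chosen with earlier results of these data known. Named list genes are those past the threshold, at most 4 per list, and the 2 most abundant of lists without any, and any further list gene in the text was picked with its values known. Some genes that the rule would name are not reported here. Alternatives were other scaling, tools, filters, terms and sets of libraries.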

Additional observations from a re-analysis of the deposited data

How the results depend on the processing

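No paired analysis was possible because the labels number the animals and give the genotypes no shared replicate numbers. Calls among the 9 genes changed under 1 setting, the runs of animal numbers as terms: the count called went from 1 to 0 in Ts65Dn;Df(17)2 against +/+ and from 0 to 1 in Dp(16)1/Df(16)8 against +/+, both through Ctss. The cause was not tested. Under every other setting, and without any 1 of the 32 libraries, the counts of members called were 1, 0, 0 and, for genotype by sex, 0. Of all tested genes, 637 were called in Ts65Dn;Df(17)2 against +/+, but 1069 by DESeq2, 158 with the striatal score as a term, 86 with the runs as terms, 280 without animals numbered below 30000 and 331 with no filter on low counts. In Dp(16)1/Df(16)8 against +/+ 92 were called, but 145 by DESeq2 and 236 with the runs. By Pearson's r, 9 to 10 pairs of members passed under the settings of the correlations, and 6 members with the striatal score.

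Signs reversed only in members that passed in no setting. In Ts65Dn;Df(17)2 against +/+, the striatal score gave -0.0758 for Cx3cr1, -0.0314 for Csf1r and -0.0622 for C1qa, and the runs gave -0.0587 for Cx3cr1 and -0.0512 for C1qa. P2ry12 was at 0.0073 by limma voom and at 0.0199 without animals numbered below 30000. In Dp(16)1/Df(16)8 against +/+, the striatal score gave -0.0297 for Cx3cr1, -0.0353 for C1qa and -0.0057 for C1qb. Between the aneuploid groups, the score gave -0.0015 for P2ry12 and -0.027 for C1qa, the runs gave -0.019 for P2ry12, 0.0226 for Tmem119 and -0.136 for C1qa, limma voom gave 0.0831 for Trem2, and Cx3cr1 was at 0.0389 without animals numbered below 30000.

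Without 1 library at a time, signs also turned in 11 values. In Ts65Dn;Df(17)2 against +/+ these were Cx3cr1 (-0.0203 to 0.0509), P2ry12 (-0.0401 to 0.0331) and C1qb (-0.0629 to 0.0124). In Dp(16)1/Df(16)8 they were Cx3cr1 (-0.0233 to 0.0566), P2ry12 (-0.0903 to 0.0059), C1qa (-0.0016 to 0.106) and Tyrobp (-0.016 to 0.108). Between the aneuploid groups they were Cx3cr1 (-0.0356 to 0.0345), P2ry12 (-0.0082 to 0.0879), C1qa (-0.0195 to 0.087) and Trem2 (-0.087 to 0.108). Counts per library limit Trem2 and Tyrobp most.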
